A study of Mus musculus with 18 samples.

Results

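Sites of 5-methylcytosine (m5C) in small RNA of the mouse testis are described here for the RNAs that do not carry an annotated tRNA name. Of the 192 sites in 128 RNAs listed for small RNA, 38 sites in 36 RNAs were taken by name alone: all whose RNA is neither a cytosolic nor a mitochondrial tRNA, except the 7 sites of Rprl2, Jak3 and Piwil1. They comprised 6 sites in 5 tRX genes, 2 sites in the named non-coding RNAs Snord118-201 and Mir99ahg, 6 sites in 5 predicted genes, and 24 sites in 24 RNAs with other names. RefSeq symbols matched 24 of the 36 names, 21 of them protein-coding, 2 long non-coding and 1 a small nucleolar RNA.

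RNA came from testes of adult mice, either wild type (WT) or knockout for Nsun7, with 3 small RNA libraries per genotype. How the knockout allele was made, the strain, and whether the libraries of a genotype came from different animals are not given in the sources used here. Any p-value therefore rests on library-to-library spread, part or all of which may be technical. Ultrafast bisulfite treatment turns unmethylated cytosine into uracil, and the level of a site is the share of its reads that still show C. A cytosine that escaped conversion also counts as m5C, and how complete conversion was is not known from the tables. The small RNA table holds sites and no expression values, so the tissue label was not checked against marker genes, and no site of Nsun7 was listed to check the knockout.

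In mammals m5C in RNA is written by the NSUN proteins and by DNMT2, and tRNAs are their best known small RNA substrates. NSUN2, the broadest of these enzymes, also methylates other non-coding RNAs such as vault RNA, and its loss exposes small RNAs to cleavage. Genes with the tRX prefix are predicted tRNA-like genes outside the high-confidence tRNA set, named with NNN in place of an anticodon and with Und where no amino acid was assigned. Fragments of protein-coding transcripts and introns also enter a small RNA library, so a host gene's name on a site gives its place and not the kind of RNA that was read.

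Depth differed widely among the 38 sites. Coverage summed over them was 10419 to 15568 reads per library, and 85.8% of it lay at a single site of the predicted gene Gm37350. Median coverage over the 6 libraries was 10.0 to 228 reads at the other 37 sites. In 12 sites at least 1 library had fewer than 10 reads, and 6 sites had at least 100 reads in every library. Reads carry no molecular identifiers, so the intervals and limits given below cover counting error only.

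The table gives a plus sign for the strand of all 192 small RNA sites, annotated tRNAs included, and so for all 38 here. Among the 20 RNAs with a strand in the RefSeq promoter table, 7 genes (Lrig1, Extl1, Tle4, Srgap1, Utrn, Cdh23 and Frmd5) lie on the minus strand. In the mRNA table of the same series the strand equalled that of the RefSeq gene at 199 of 199 sites. Whether the plus sign in the small RNA table stands for the genome strand is not known, so it cannot be said whether these 7 sites are sense or antisense to the named gene. Positions are those of the table, whose processing notes list GRCm39, and whether a site is exonic or intronic was not analysed here.

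The tRX sites were nearly fully methylated, with 5 of 6 at or above 90% over the 6 libraries. tRX-Lys-NNN-23-1 (chromosome 8, position 61231784) was the deepest, at 117 to 198 reads. Its WT libraries gave 99.1%, 99.0% and 97.7%, and its knockout libraries 95.9%, 97.6% and 96.9%. All 6 of its libraries were above 95% while every knockout library was below every WT library. tRX-Lys-NNN-49-1 had a pair of neighbouring cytosines on chromosome 8, at positions 80329309 and 80329310. The first had 94.4%, 98.1% and 95.9% in WT and 90.7%, 98.5% and 97.3% in the knockout, at 66 to 106 reads. The second had 97.7%, 95.9% and 98.1% in WT and 97.4%, 96.2% and 94.2% in the knockout. The same reads can cover both cytosines, and within a library their levels differed by 2.16 to 6.70 percentage points with no fixed order.

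The other tRX genes were shallower. tRX-Und-NNN-20-1 (chromosome 4, position 148805558, 32 to 48 reads) had 92.7%, 95.8% and 86.8% in WT and 97.9%, 96.9% and 94.1% in the knockout. tRX-Ser-NNN-32-1 (chromosome 14, position 4389211, 9 to 22 reads) had 100% in every library but knockout replicate 2, at 95.5%. tRX-Lys-NNN-16-1 (chromosome 7, position 128394343, 23 to 44 reads) was the exception, at 66.7%, 77.1% and 78.3% in WT and 84.1%, 80.0% and 81.1% in the knockout. Its highest library, 84.1%, was below the lowest library of any other tRX site, 86.8%. That gap was narrower than the range of its own libraries. The exact 95% intervals (Clopper-Pearson) of these nearest libraries overlapped. They were 69.9% to 93.4% on 44 reads and 71.9% to 95.6% on 38 reads. Among annotated tRNAs of the same amino acids, 4 of 6 tRNA-Lys and 2 of 4 tRNA-Ser sites were at or above 90%, and tRNA-Lys ranged from 14.9% at tRNA-Lys-TTT-1-5 to 99.7% at tRNA-Lys-CTT-15-1. Copies of tRNA-like genes can be nearly identical, and the labels do not say how reads matching several copies were counted, so the assignment to a single copy is uncertain.

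Averaged over sites, tRX levels exceeded those of the other RNAs in 6 of 6 libraries. The tRX mean was 91.8%, 94.3% and 92.8% in WT and 94.3%, 94.1% and 93.9% in the knockout. Over the 32 sites of other RNAs it was 68.1%, 71.4% and 69.3% in WT and 72.0%, 68.8% and 69.9% in the knockout. By genotype the means were 93.0% ± 1.29 (SD, n = 3) in WT and 94.1% ± 0.190 in the knockout for tRX, and 69.6% ± 1.63 and 70.2% ± 1.58 for the other RNAs. The gap was 22.4 to 25.2 points per library, with a mean of 23.6 ± 0.983 (SD over 6 libraries), and no test was made of it because sites are not replicates. Its size depends on the average taken: the gap was 14.8 points between medians over sites and 73.1 points for pooled reads, where the deep Gm37350 site outweighs the rest. Mean levels of the 6 tRX sites ran from 77.9% to 99.2%, and those of the 32 other sites from 7.11% to 100%.

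**Figure D1:**
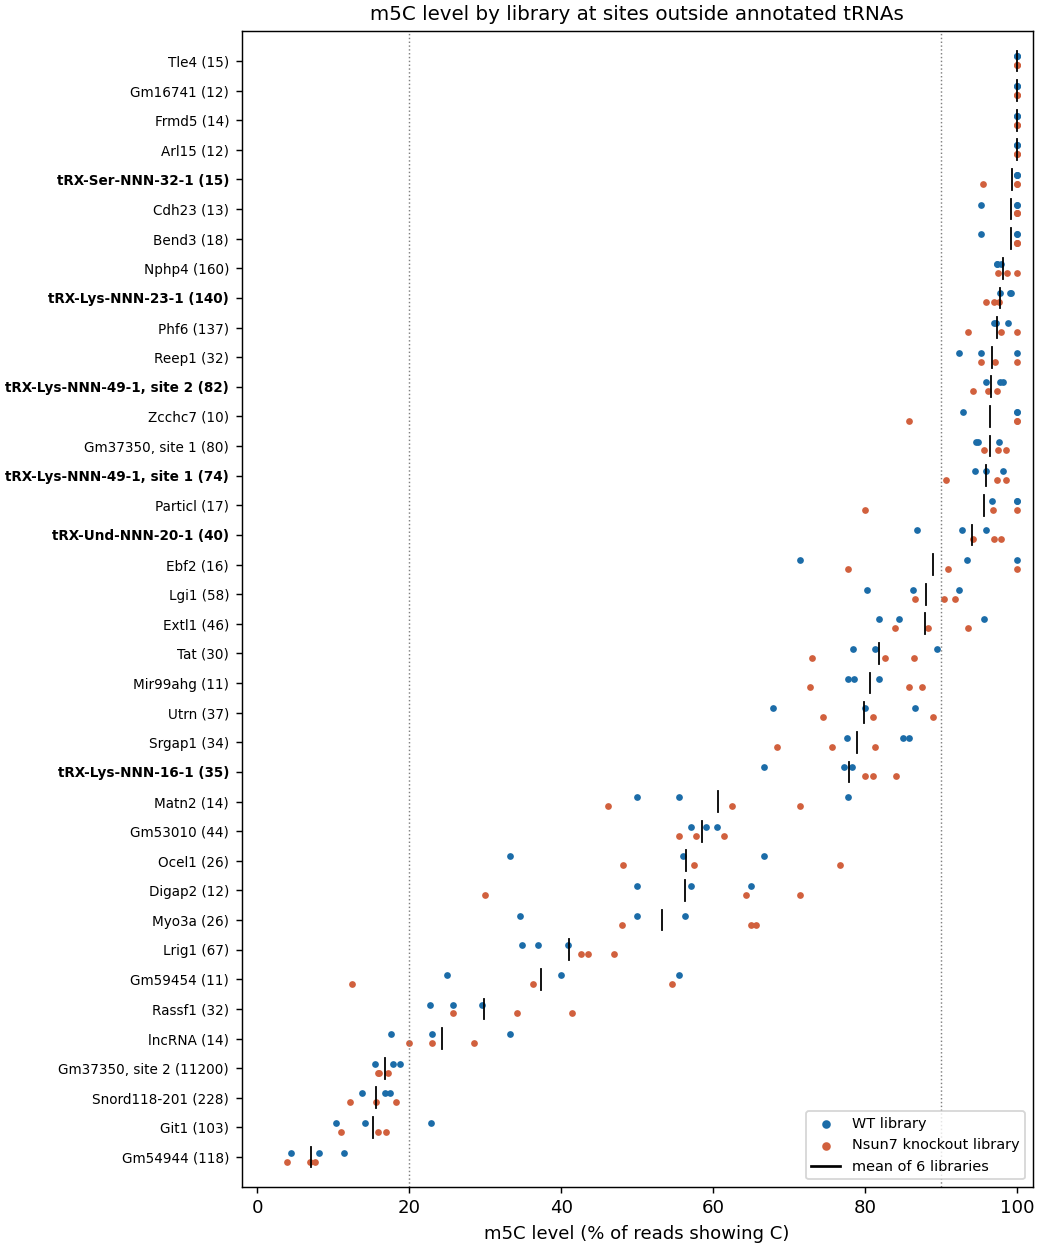
m5C level (x axis, % of reads showing C) at each of the 38 sites (y axis, ordered by mean level, tRX names in bold, median coverage in reads in brackets, and the sites of a gene with several numbered by position). Blue points are the 3 WT libraries, orange points the 3 Nsun7 knockout libraries, black bars the mean of 6 and dotted lines 20% and 90%. There are 17 sites at or above 90% and 4 below 20%. The points of intermediate sites spread most, without correction for level or depth.

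Levels fell into a large near-full set, a broad middle and a small low set. With near-full set at a 6-library mean of at least 90% and low at under 20%, 17 sites were near-full, 17 intermediate and 4 low. Just inside and outside the upper limit were tRX-Und-NNN-20-1 at 94.0% and Ebf2 at 88.9%. Around the lower limit were Gm37350 at 16.9% and the site named lncRNA at 24.3%. In the 147 annotated tRNA sites the shares were 32.0% near-full and 3.40% low, against 44.7% and 10.5% here.

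Near-full levels outside tRX genes rested on at least 20 reads in every library at 4 sites. Nphp4, whose protein sits in the transition zone of the cilium, had a site at chromosome 4, position 152635715, with 119 to 191 reads. Levels there were 97.8%, 97.4% and 97.3% in WT and 100%, 98.7% and 97.5% in the knockout. Phf6, an X-linked gene for a PHD finger protein of chromatin, had a site at chromosome X, position 52007510, with 107 to 156 reads. Its levels were 98.7%, 97.2% and 96.9% in WT and 97.9%, 100% and 93.5% in the knockout. At these depths the pooled exact 95% interval (Clopper-Pearson) was 97.1% to 98.9% for Nphp4 and 96.2% to 98.5% for Phf6. Reep1, which encodes a protein that shapes the endoplasmic reticulum, had 92.3%, 100% and 95.2% in WT and 100%, 97.1% and 95.2% in the knockout, at 21 to 47 reads. The fourth was the first listed site of Gm37350, given below.

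The remaining near-full sites outside tRX genes had between 5 and 31 reads per library. No converted read was seen in any library at 4 of them: Tle4 (a Groucho family corepressor, 98 reads in all), Frmd5 (a FERM domain protein, 92), Arl15 (an ARF-like GTPase, 70) and the predicted gene Gm16741 (69). By an approximate limit, 3 reads over the summed coverage, the converted share could be up to 3.06%, 3.26%, 4.29% and 4.35% at these sites. The pooled exact 95% intervals of the level were wider, reaching down to 96.3%, 96.1%, 94.9% and 94.8%. Bend3, a BEN domain repressor, and Cdh23, a cadherin of hair cell tip links, each had a single converted read and a mean of 99.2%. Particl, a long non-coding RNA, stood at 95.6% with knockout replicate 2 at 80.0% on only 5 reads. Zcchc7, a zinc knuckle protein of the nuclear TRAMP complex, had 96.4% with 2 converted reads of 66. In all, 8 of the 17 near-full sites had at least 20 reads in every library and 3 had at least 100.

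Intermediate sites had the largest SD over 6 libraries, with a median of 6.50 points against 1.86 at near-full and 2.51 at low sites. Counting error is itself larger at middle levels and at low coverage, and this ranking was not corrected for either. Median coverage was 30 reads at intermediate and 173 at low sites. Over the 31 sites with an estimate, the median spread relative to counting error was 1.02 (dispersion, given below). Lgi1, encoding a secreted synaptic protein, Extl1, an exostosin-like glycosyltransferase gene, and Ebf2, a transcription factor gene, averaged 87.9%, 87.9% and 88.9%. Tat (tyrosine aminotransferase), Utrn (utrophin), Srgap1 (a GTPase-activating protein of Slit-Robo signalling) and the long non-coding RNA Mir99ahg averaged 81.8%, 79.8%, 78.9% and 80.7%. Around the middle of the scale were Matn2 (matrilin 2, 60.6%), the predicted gene Gm53010 (58.6%), Ocel1 (56.4%), Digap2 (56.3%) and Myo3a (a class III myosin, 53.2%). Lower levels were found at Lrig1, a negative regulator of ErbB receptors (41.0%), Gm59454 (37.3%), Rassf1, a Ras-association tumour suppressor (29.9%), and the site named lncRNA (24.3%). The last of these, at chromosome 1, position 112449404, had 33.3%, 17.6% and 23.1% in WT and 28.6%, 23.1% and 20% in the knockout on 13 to 17 reads, and the genotypes overlapped. At Gm59454 the libraries ran from 12.5% to 55.6% on 8 to 20 reads, so its level is poorly fixed. Gm53010 was the steadiest of this set, at 59.1%, 60.5% and 57.1% in WT and 57.8%, 55.6% and 61.4% in the knockout on 36 to 49 reads.

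Low levels came with at least 70 reads in every library at all 4 sites. How sites were chosen for listing is not known, and a minimum number of C reads would keep out shallow sites of low level. Gm54944 (chromosome 11, position 27035179, 100 to 183 reads) had 11.4%, 8.20% and 4.42% in WT and 4.00%, 7.65% and 6.98% in the knockout. Snord118-201, the U8 small nucleolar RNA needed to process ribosomal RNA of the large subunit, had 16.8%, 17.5% and 13.8% in WT and 18.2%, 12.2% and 15.7% in the knockout (chromosome 11, position 68964257, 200 to 258 reads). Git1, a gene for a scaffold and ARF GTPase-activating protein, had 10.4%, 22.9% and 14.2% in WT and 15.9%, 11.1% and 17.0% in the knockout, at 70 to 115 reads. WT replicate 2 of Git1 was the highest single value among the low sites. Their SD over 6 libraries was 1.31 to 4.54 points, and the genotypes overlapped at each, with knockout minus WT differences of -0.671 to -1.80 points.

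Git1 was also the only one of the 36 RNAs with sites in the mRNA table. Those lie 627 and 6743 nucleotides from the small RNA site (position 77390500 of chromosome 11), and none of the positions is shared. The mRNA sites averaged 4.61% and 3.75% over 6 libraries at 204 to 353 reads, with a highest library of 5.95%. Every small RNA library at Git1 was above this, the lowest at 10.4%. The sites and the library kits differ, so the levels are given side by side and not tested.

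Gm37350 was the only member outside tRX genes with several listed sites, and they lay at opposite ends of the scale. At position 5925524 of chromosome 3 the level was 97.6%, 94.9% and 94.5% in WT and 98.5%, 95.6% and 97.5% in the knockout, on 65 to 119 reads. At position 5925769, 245 nucleotides away, it was 15.5%, 17.9% and 18.8% in WT and 17.2%, 16.0% and 15.9% in the knockout, on 8530 to 13908 reads. The site of low level thus had 104 to 182 times the coverage of the near-full site in the same library. The levels of the pair did not overlap in any library. Whether the reads at both sites come from the same RNA, or also match other places in the genome, is not known from the labels.

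**Figure D2:**
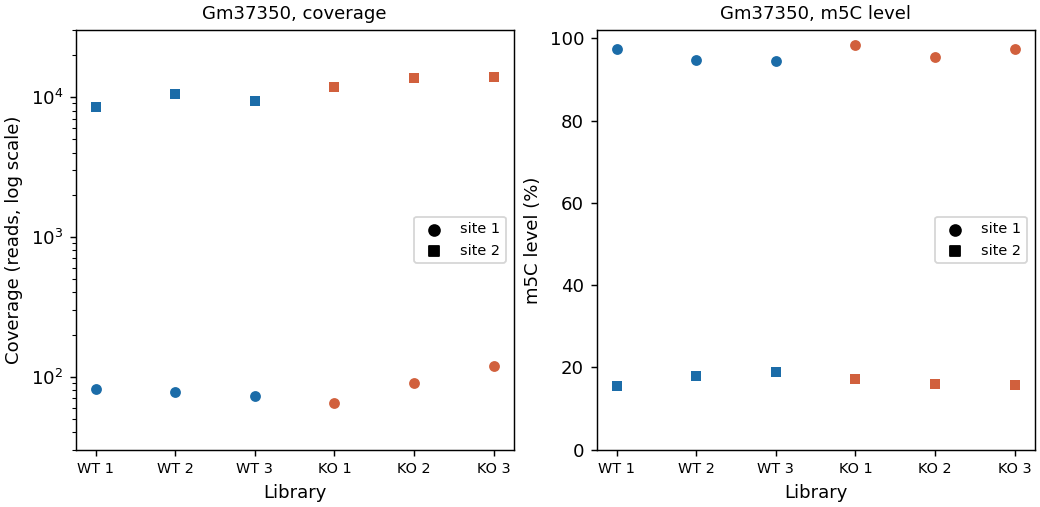
Coverage (left, reads, log scale) and m5C level (right, %) at both listed sites of Gm37350 in each WT (blue) and Nsun7 knockout (orange, KO) library, with site 1 (circles) and site 2 (squares) ordered by position. Site 2 has 8530 to 13908 reads and levels of 15.5% to 18.8%, while site 1 has 65 to 119 reads and levels of 94.5% to 98.5%.

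The deep Gm37350 site also shows how far libraries can differ beyond counting error. Its dispersion, the spread between libraries of a genotype relative to that of counting reads alone, was 11.6. Over the 31 sites where it could be estimated the median dispersion was 1.02, and 16 sites were above 1. Fisher's exact test on pooled reads, which takes each read as independent, gave Gm37350 an adjusted p of 0.00104 and called 12.8% of all small RNA sites. The library means of the deep site differed by -1.02 points, an unweighted difference and not the pooled one that Fisher's test compares. The quasi-binomial model, which takes in the spread between libraries, gave the deep site an adjusted p of 0.883.

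Level and coverage were only loosely related. Across the 38 sites the Spearman correlation of median coverage with mean level was -0.258, and across the 147 annotated tRNA sites it was 0.383. The sites share libraries and some share reads, so these are descriptions. Near-full sites had a median coverage of 18.0 reads, intermediate sites 30 and low sites 173. Among sites with a median of at most 200 reads, a limit set after the values were seen, 17 of 36 were near-full (47.2%), against 9 of 61 annotated tRNA sites (14.8%). This contrast was not tested, since the sites were grouped with results known and several tRNA sites share an RNA. The rule by which sites were listed is not known either. If it asked for a minimum number of C reads, shallow sites of low level would be missing from all these comparisons. Any link of depth and level may thus come from the listing, which was not tested.

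**Figure D3:**
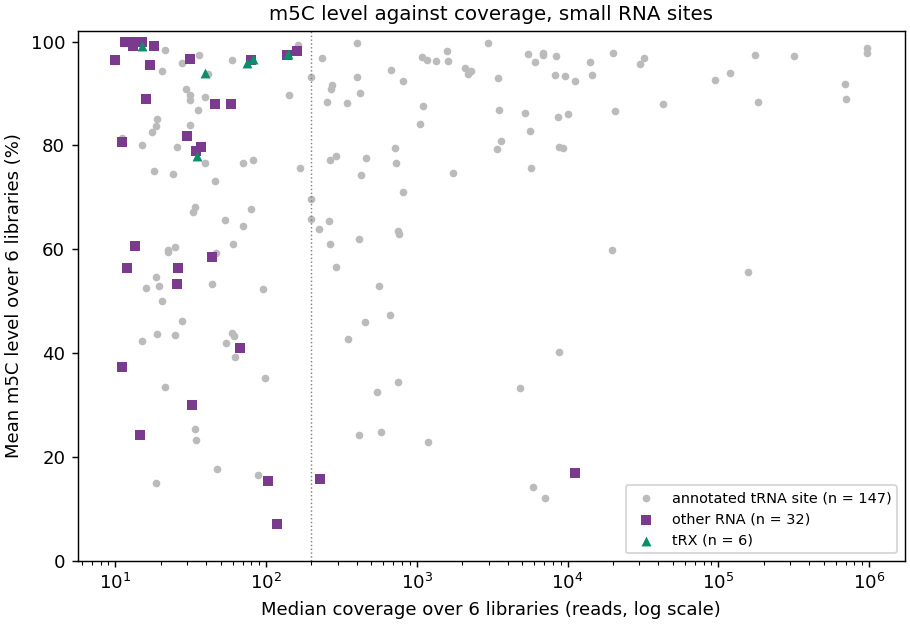
Mean m5C level over 6 libraries (y axis, %) against median coverage (x axis, reads, log scale) for annotated tRNA sites (grey circles), tRX sites (green triangles) and sites of other RNAs (purple squares); the dotted line marks 200 reads. All but 2 of the 38 sites lie left of the line, and 17 of those 36 are at or above 90%.

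No site was called different in level between the genotypes. The knockout mean was higher at 16 sites, lower at 18 and equal at 4, with a median difference of 0 points, and over all 192 sites it was higher at 96 and lower at 92. The quasi-binomial model could be fitted at 31 of the 38 sites and called 0 at an adjusted p under 0.05, the same as its share of 0% over the 184 sites tested in all. At an unadjusted p under 0.05 there was 1 site, Lrig1, beside a background of 3.8%. limma on the levels also called 0 of 33, and before adjustment 2 had p under 0.05, Lrig1 and tRX-Lys-NNN-23-1, beside 3.74% of the 187 sites it tested. With the replicate number as a block, 0 of 27 sites had an unadjusted p under 0.05, beside 4.47% of all sites tested. The 7 sites without a fit either had no converted read (Tle4, Frmd5, Arl15 and Gm16741) or had fewer than 2 libraries of 10 reads in a genotype (Mir99ahg, Zcchc7 and Gm59454).

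At 3 sites every knockout library lay on the same side of every WT library, 2 higher and 1 lower. Over all small RNA sites such a pattern was found at 5.73% in each direction. Lrig1 (chromosome 6, position 94607817, 39 to 83 reads) had 37.0%, 41.0% and 34.8% in WT and 47.0%, 42.6% and 43.6% in the knockout. The difference was 6.80 points, with the nearest libraries 1.68 points apart. At tRX-Lys-NNN-16-1 the difference was 7.70 points with the nearest libraries 1.74 apart, and WT replicate 1, at 66.7%, carried much of it: without that library it was 4.02. For tRX-Lys-NNN-23-1 the difference was -1.83 points, with the nearest libraries 0.169 apart. Because these sites were picked for not overlapping, the exact permutation test could only give p = 0.1, the smallest that 3 against 3 libraries allow. The quasi-binomial adjusted p was 0.799 for all 3. Over same-numbered pairs the exact permutation p was likewise fixed by the choice of sites, at 0.25, the smallest that 3 pairs allow. In the quasi-binomial model with the replicate block the unadjusted p was 0.141 at Lrig1, which had 0.0470 without the block, 0.225 at tRX-Lys-NNN-16-1 and 0.124 at tRX-Lys-NNN-23-1.

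Larger differences occurred where libraries overlapped. Myo3a had 34.6%, 56.2% and 50% in WT and 65.0%, 65.6% and 48.0% in the knockout, a difference of 12.6 points on 20 to 32 reads. Srgap1 had the most negative difference, -7.65 points, with 85.7%, 77.6% and 85% in WT and 75.7%, 81.2% and 68.4% in the knockout. Ocel1 differed by 8.75 points, yet its WT libraries alone ran from 33.3% to 66.7%. For Rassf1 the difference was 7.74 points, with a lowest knockout library of 25.7% against a highest WT library of 29.6%. The 95% limma interval of the difference left out a drop by 50% from the WT mean for 28 of 33 sites, and a complete loss for all 33. A drop by 50% was within the interval for the other 5, Git1, Gm54944, the site named lncRNA, Matn2 and Digap2.

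**Figure D4:**
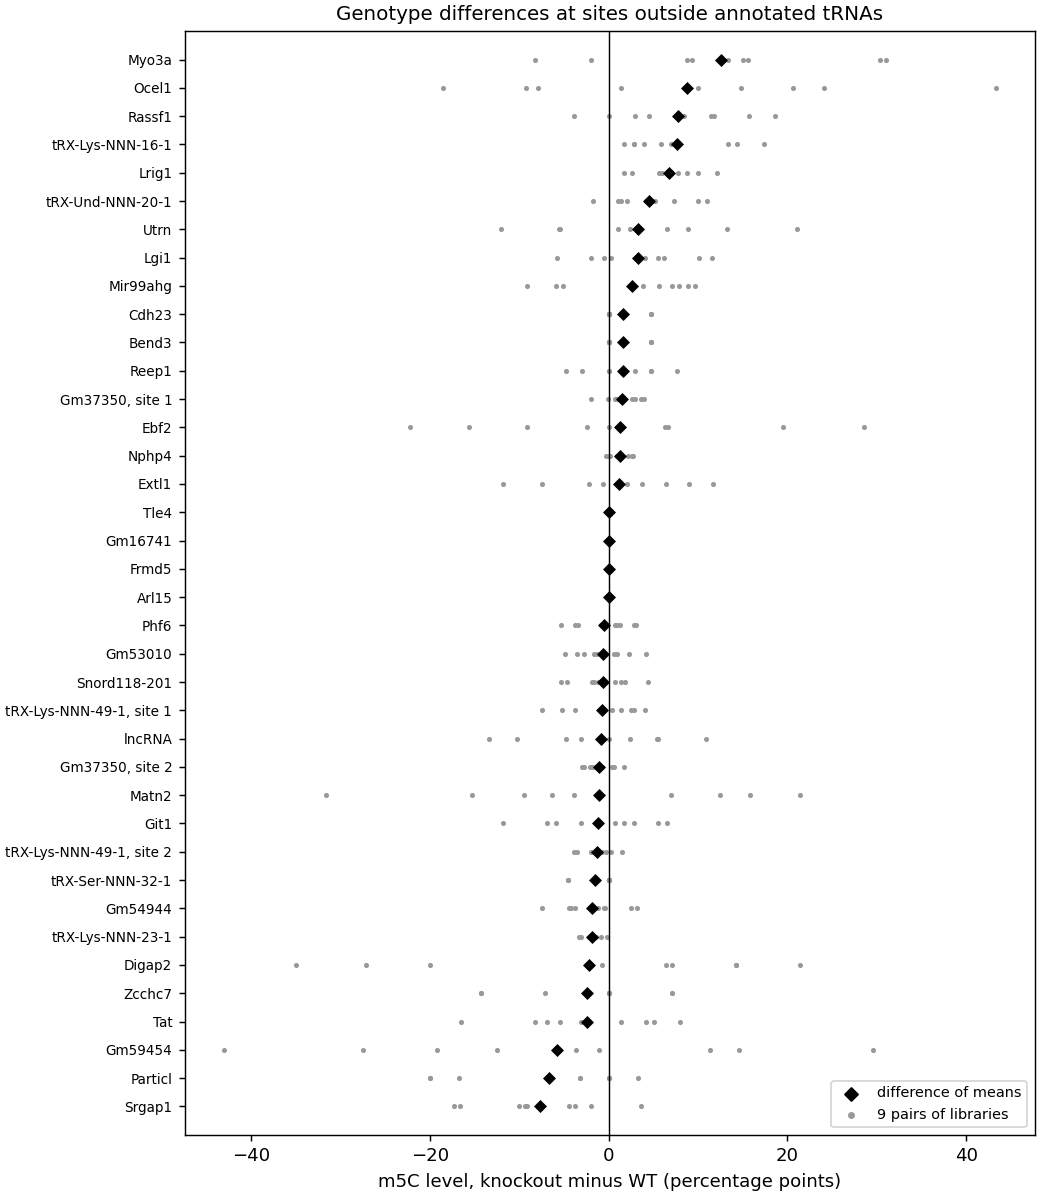
Difference in m5C level between Nsun7 knockout and WT (x axis, percentage points) at each of the 38 sites (y axis, ordered by the difference of means, sites of a gene with several numbered by position). Black diamonds are differences of the 3-library means and grey points the 9 differences between single libraries. For only 3 sites, tRX-Lys-NNN-16-1, Lrig1 and tRX-Lys-NNN-23-1, do all grey points lie on the same side of 0.

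Coverage itself was compared as a measure of how many reads each RNA gave. In whole testes, fewer cells of a type and less RNA per cell cannot be told apart. edgeR's quasi-likelihood test called 0 of the 38 sites and 0% of all 192. Without adjustment 4 sites had p under 0.05, beside 6.77% of all sites, each higher in the knockout. These were the deep Gm37350 site, Ocel1, Ebf2 and tRX-Lys-NNN-16-1. DESeq2 likewise called 0, and 2 of the 38 sites had p under 0.05 before adjustment, beside 3.12% of all sites. The median log2 fold change of knockout over WT was 0.03 over the 38 sites and 0.04 over all sites, with 21 above 0 and 17 below, and with DESeq2's scaling the median over the 38 was -0.04 with 17 above 0.

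At the deep Gm37350 site coverage in CPM (counts scaled to a common library size, with TMM) was 1476, 2035 and 2104 in WT and 2311, 2935 and 3302 in the knockout. All 3 knockout libraries were above all 3 WT libraries, a pattern whose share over all sites was not counted for coverage. The log2 fold change was 0.61 (SE 0.18), with an adjusted p of 0.274 in edgeR. With the replicate number as a block, under which same-numbered libraries are compared, it was 0.61 with an adjusted p of 0.00968, the only call among the 38 sites, where 3.12% of all sites were called. The shallow Gm37350 site had 14.2, 15.1 and 16.3 CPM in WT and 12.7, 19.4 and 28.3 in the knockout, which overlap, and an adjusted p of 0.458 with the block. Library sizes were sums over listed sites, and the deepest of these, in tRNA-Glu-TTC-1-1, had 961677 to 978773 reads in every library. Whether a depth limit was set when reads were counted is not known, and with one these sums and the CPM values would not follow the true depth of the libraries. Without that tRNA in the library sizes the log2 fold change at the deep Gm37350 site was 0.56, with an adjusted p of 0.418 in edgeR without the block.

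Ocel1 had 15, 21 and 25 reads in WT and 30, 47 and 27 in the knockout, and Ebf2 7, 15 and 11 against 18, 17 and 22. Neither set of raw counts overlapped between genotypes, but both sites were named because of an unadjusted p under 0.05 in edgeR. The share of all sites with such a gap in coverage was not counted. The log2 fold changes of Ocel1 and Ebf2 were 0.89 and 0.92, with edgeR adjusted p of 0.598 and 0.635. tRX-Lys-NNN-16-1, whose level was also higher in the knockout, had 30, 35 and 23 reads in WT and 44, 35 and 37 in the knockout, a log2 fold change of 0.54 with an edgeR adjusted p of 0.696.

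Along the genome the sites were scattered over 16 chromosomes. Apart from the neighbouring pair in tRX-Lys-NNN-49-1 and the pair in Gm37350, none had another listed small RNA site within 10000 nucleotides.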

How the data were processed

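Small RNA libraries of adult mouse testis, 3 WT and 3 Nsun7 knockout by their titles, were used, with the mRNA table for shared genes and strand. Large RNA was not used here. Per the labels' protocols, small RNA was isolated on columns, converted with an ultrafast bisulfite buffer and made into libraries with a small RNA kit. The submitters' processing notes name cutadapt, Trimmomatic, HISAT2, Bowtie2, SAMtools and GRCm39; roles, versions and the choice of sites are not given in the sources used here. As deposited, per the file headers, coverage and C are counts of reads without normalization, and the deposited level is a fraction that the authors rounded (within 0.005 of C over coverage). Levels were recomputed from the counts as percentages. No column was left unmapped (0).

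C reads were tested per site with a quasi-binomial logistic model over all small RNA sites, using libraries of at least 10 reads and at least 2 per genotype, two-sided, and sites were called at a Benjamini-Hochberg adjusted p under 0.05. Libraries fitted at 0% or 100% did not count as residual degrees of freedom. Coverage was tested with edgeR 4.0.16 (TMM, quasi-likelihood), limma 3.58.1 and DESeq2 1.42.0 served as alternatives, in R 4.3.3, and scripts were tested on simulated data. Same-numbered libraries correlated at 0.136, 0.159 and 0.147 in level residuals (Spearman, over sites) and at 0.423, 0.253 and 0.141 in log coverage. By the limit of 0.1 per pair the numbers were used as a block, but only as an alternative. The main tests of level and coverage left the numbers out. Differently numbered libraries gave -0.154 to 0.108 and -0.394 to 0.240, so the same limit was also passed by some of these. The labels do not say what a number shares.

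Values in every library are given for all tRX sites, sites whose genotypes do not overlap, near-full sites with at least 20 reads, the lowest and deepest sites, and RNAs with several sites; Myo3a, Srgap1, Ocel1, Rassf1, Ebf2 and Gm53010 were singled out after their values were seen. The name rule for small non-coding RNAs also took Mir99ahg, a long non-coding RNA. The members and groups were chosen with earlier results of these data known. RefSeq symbols and strands are of GRCm38.p6, whose coordinates were not used.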

Additional observations from a re-analysis of the deposited data

How the results depend on the processing

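Under the alternatives, 80 values were taken as unmoved and 17 as moved. A count was unmoved if it equalled the main count or was within 1.5 times of it, and counts of 0 in both are among the 80. A class mean or gap was unmoved if it changed by less than 1 SD over the libraries. A level difference at a site was unmoved if it kept its direction and its side of the adjusted p threshold, whatever its size. The level differences at Lrig1, tRX-Lys-NNN-16-1 and tRX-Lys-NNN-23-1 kept their direction, while the median log2 fold change of coverage went from 0.03 to -0.04 with DESeq2 and to -0.01 with library sizes without tRNA-Glu-TTC-1-1, and the sites above 0 from 21 to 17 and 19. Leaving out any library kept the counts of near-full and low sites within 1.5 times and the class means within 1 SD. Fisher's exact test on pooled reads called 1 site in level, Gm37350, in place of 0. With the replicate block 0 sites were called in level and 1 in coverage, the deep Gm37350 site, in place of 0, and the block changed no other call. Class averages moved with the average taken. Medians over sites were 96.4% for tRX and 81.6% for other RNAs, 14.8 points apart. Pooled reads gave 95.1% and 22.1%, 73.1 points apart. Sites with at least 10 reads in every library averaged 92.4% and 63.0%, 29.4 points apart, and with at least 20 reads 92.4% and 58.8%, 33.6 points apart. Without the deep Gm37350 site, an alternative chosen after seeing the data, other RNAs averaged 71.6%; the library sizes without tRNA-Glu-TTC-1-1 were also chosen then. Asking for 20 reads in every library left 8 near-full sites of 17, and a low limit of 10% left 1 site of 4. Every site passed the coverage filter, so removing it changed nothing. Depth limits the shallow sites most: levels at fewer than 10 reads entered 18 of the 228 library values.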
